A study of Mus musculus with 4 samples.

Results

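The DNA damage repair genes followed here are 46 mouse genes for damage signalling, homologous recombination, the Fanconi anaemia pathway, end joining, mismatch repair, base excision and single-strand break repair, and nucleotide excision repair. They were chosen by function, by matching gene symbols to the Ensembl IDs of a count table of 52636 genes, and all 46 were found and had enough counts to be tested. The table holds 4 libraries of mouse Hoxb8 cells; forced expression of this homeobox gene is a common way to hold mouse myeloid progenitors in culture. In 2 libraries the cells carried an empty vector (EV) and in the other 2 they expressed DNMT3A R882H (R882H), a recurrent substitution of a DNA methyltransferase in acute myeloid leukaemia. The line is the only background the labels give for both groups; they name no promoter for the transgene, no clone and no time point, and do not state whether replicates are independent cultures, so the tests see only the spread between these libraries, which may be technical.

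DNA breaks are first sensed by kinases, of which ATM answers mainly to broken ends and ATR to exposed stretches of unpaired DNA at stalled forks, and both pass the signal to checkpoint kinases and mediator proteins. Breaks are then repaired from the sister chromatid by homologous recombination, with the BRCA proteins, or are joined end to end by Ku, DNA-PK and ligase IV. Crosslinks between strands are opened by the Fanconi proteins, mispaired bases are removed by the MutS and MutL homologues, small base damage by glycosylases, APEX1, polymerase beta and the XRCC1-ligase pair, and bulky adducts by the XP and ERCC proteins. Dividing blood progenitors depend on these pathways, and inherited loss of several of them causes bone marrow failure.

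Total counts ran from 5470330 to 5921985 per library, and 3 counts in a library were worth 0.502 to 0.550 CPM (counts per 1000000 counts of the scaled library). Libraries of one group correlated across tested genes with Pearson r of 0.989 in EV and 0.990 in R882H on log2 CPM, against 0.917 to 0.926 between groups. Dnmt3a had 264 and 270 counts in EV and 254 and 239 in R882H, and since a transgene may lack the 3′ end that these tags read, the values are no check of the labels. The blood cell markers Ptprc, Cd53, Coro1a and Laptm5 summed to 974 and 1087 CPM in EV and 908 and 963 CPM in R882H, and the 8 of myeloid progenitors to 2910 and 2875 CPM in EV and 4466 and 4601 CPM in R882H. Of those 8, Mpo (32.7 to 1242 mean CPM), Ctsg (762 to 1165) and Kit (26.5 to 77.6) rose and Cebpa (107 to 63.9) fell, and Elane, Prtn3, Spi1 and Cd34 were not called. Markers of several other lineages differed between the groups. The 6 erythroid markers were near the floor, with sums of 2.75 and 2.65 CPM in EV and 2.01 and 1.58 CPM in R882H. Only 1 of them, Hbb-bs, could be tested, and it was not called. The 6 B lineage markers summed to 223 to 238 CPM in EV and 739 to 797 CPM in R882H, the 5 of basophils and mast cells to 42.2 to 44.1 CPM and 374 to 394 CPM, and the 5 of megakaryocytes to 850.2 to 1040 CPM and 22.5 to 26.1 CPM. Of the tested markers, 5 of 5 rose for B cells and 3 of 3 for basophils and mast cells, while for megakaryocytes 1 of 3 rose and 1 fell. Among these, Pax5 and Prss34 passed the low-count filter only through R882H, where they are high. Most of the rise in the B lineage sum came from Vpreb1 (17.8 to 388 mean CPM). Most of that in the basophil and mast cell sum came from Cpa3 (22.5 to 300 mean CPM). Pf4 carried the megakaryocyte sum (939 CPM in EV and 12.8 CPM in R882H on average), and Itga2b rose from 2.33 to 5.99 mean CPM. The defining T cell genes Cd3e, Cd3g, Cd4 and Cd8a were at 0 in every library, while Lck, also on that list of 5, fell from 36 and 47 counts in EV to 7 and 5 in R882H. Lck passed the low-count filter only through EV. Of 5 stromal genes, Col1a1, Col1a2, Dcn and Cdh5 were at 0 and the list summed to at most 2.29 CPM in a library. The Y-linked gene Ddx3y had 0 and 2 counts in EV and 65 and 41 in R882H, and Eif2s3y had 1 and 0 in EV and 26 and 29 in R882H. Xist, the RNA of the inactive X chromosome, was present in all 4 libraries, with 1463 and 1438 counts in EV and 1880 and 1509 in R882H. The labels do not say which animals the cells of each group came from, so the vector and a different source of cells cannot be told apart as origins of a difference. The part of these marker differences in the repair gene values was not tested, and in bulk RNA fewer cells of a type and less RNA per cell cannot be told apart.

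The 3 repair genes whose transcript changed by at least 2-fold were Fancc and Xrcc5, which fell, and Parp3, which rose. Promoter windows listed for them are shown because DNMT3A methylates CpG sites, here in capitals. Each RefSeq window of the GRCm38.p6 build covers 250 bases before to 50 bases after a RefSeq start of the gene, 5′ to 3′. Methylation itself was not measured in these libraries.
Fancc, chr13:63431696-63431995, minus strand: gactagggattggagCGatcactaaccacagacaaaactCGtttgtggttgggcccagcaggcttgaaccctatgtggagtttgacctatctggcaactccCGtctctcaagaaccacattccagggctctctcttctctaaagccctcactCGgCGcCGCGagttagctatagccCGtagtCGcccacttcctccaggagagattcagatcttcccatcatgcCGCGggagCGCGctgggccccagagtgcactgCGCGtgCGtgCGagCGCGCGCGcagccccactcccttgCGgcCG
Xrcc5, chr1:72307171-72307470, plus strand: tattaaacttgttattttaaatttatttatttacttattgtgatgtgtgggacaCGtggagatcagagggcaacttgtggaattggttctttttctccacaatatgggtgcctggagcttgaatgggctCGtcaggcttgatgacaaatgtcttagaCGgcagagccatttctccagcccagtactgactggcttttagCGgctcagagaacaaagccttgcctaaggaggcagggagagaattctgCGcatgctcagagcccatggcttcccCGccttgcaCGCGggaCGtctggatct
Parp3, chr9:106476900-106477199, minus strand: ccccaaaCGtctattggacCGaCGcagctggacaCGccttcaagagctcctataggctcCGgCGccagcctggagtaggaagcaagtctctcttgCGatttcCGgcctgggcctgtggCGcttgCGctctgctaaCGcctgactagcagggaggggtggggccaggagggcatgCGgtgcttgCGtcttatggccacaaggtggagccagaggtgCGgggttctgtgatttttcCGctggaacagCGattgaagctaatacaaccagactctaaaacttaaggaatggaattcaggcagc
The Fancc window holds 23 CpG sites, the Parp3 window 16 and the Xrcc5 window 9. Among the 39 repair genes with a window (44 windows), the median was 23 CpG sites and the range 2 to 37, close to the median of 21 over the 10927 windows of all genes tested. The Xrcc5 and Parp3 windows cover the annotated starts of these genes (72307421 and 106476949), and the Xrcc5 count is near the bottom of the range. The Fancc window does not cover the annotated start. It lies inside the gene, which starts at 63497278 on the minus strand. Its CpG count, at the median of the repair genes, thus describes a start within the gene. Whether the counted Fancc transcripts begin there was not tested.

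The same windows were searched on both strands for TTTGGCGC and TTTCCCGC, forms of the site bound by the E2F factors that drive S phase genes. A match was present in 9 of 44 repair gene windows (20.5%), in 3.14% of the windows of all tested genes and in 1.56% of all 32851 windows. In the wider list of other repair genes described below, it was 2 of 100 windows. The stretches around the matches, with the match in capitals (GCGGGAAA is TTTCCCGC read on the other strand), were as follows.
Bard1, chr1:71103159-71103196, minus strand: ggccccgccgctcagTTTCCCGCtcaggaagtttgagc
Brca2, chr5:150522438-150522475, plus strand: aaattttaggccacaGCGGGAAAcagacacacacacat
Chek2, chr5:110839816-110839853, plus strand: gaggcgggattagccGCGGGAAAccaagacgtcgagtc
Fancg, chr4:43010331-43010368, minus strand: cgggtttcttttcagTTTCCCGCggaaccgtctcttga
Mdc1, chr17:35841467-35841504, plus strand: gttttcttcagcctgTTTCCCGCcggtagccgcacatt
Msh3, chr13:92355183-92355220, minus strand: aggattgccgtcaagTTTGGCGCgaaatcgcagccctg
Msh6, chr17:87975050-87975087, plus strand: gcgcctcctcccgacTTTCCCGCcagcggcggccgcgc
Rad51c, chr11:87404937-87404974, minus strand: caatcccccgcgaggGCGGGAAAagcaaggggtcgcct
Xrcc6, chr15:82016308-82016345, plus strand: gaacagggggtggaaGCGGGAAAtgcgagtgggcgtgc
Of these 9 genes, Bard1 alone passed the test for a change, as a rise, and the other 8 did not. Beside this, 21.7% of the 46 repair genes and 38.8% of all tested genes passed it. With so few genes, the count is a description only. The cell cycle homology element TTTGAA was found, also on both strands, in 1 repair gene window (2.27%), that of Bard1, against 12% of the windows of tested genes. A match describes the letters of a window and does not show that a factor binds there.

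The comparison set the repair machinery's transcripts in R882H against those in EV. Of the 46 repair genes, 7 rose and 3 fell while 36 missed the threshold, so 21.7% were called, beside a background of 38.8% of all 11444 tested genes (19.3% higher and 19.4% lower). The words rose, fell and called are used where edgeR's quasi-likelihood test gave a Benjamini-Hochberg adjusted p under 0.05 over all tested genes. A change of at least 2-fold was called in 3 of the 46, beside 14.1% of all tested genes. The median log2 fold change, R882H over EV, was 0.08 for the repair genes and 0.01 for all tested genes, and 27 of the 46 were above 0. In 19 genes both R882H libraries lay above both EV libraries and in 10 below, beside 35.2% and 33.9% of all tested genes, or 69.1% in either direction. DESeq2 called 4 of the 46 higher and 3 lower, beside 21.1% of all genes to which it gave an adjusted p. The repair genes' summed level was 2291 and 2449 CPM in EV and 2304 and 2407 CPM in R882H, so that their total differed less between the groups than between the EV libraries. Lig1 alone held 506 and 612 CPM of the EV sums and 445 and 534 CPM of the R882H sums. The total therefore says little about most of the 46 genes.

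**Figure D1:**
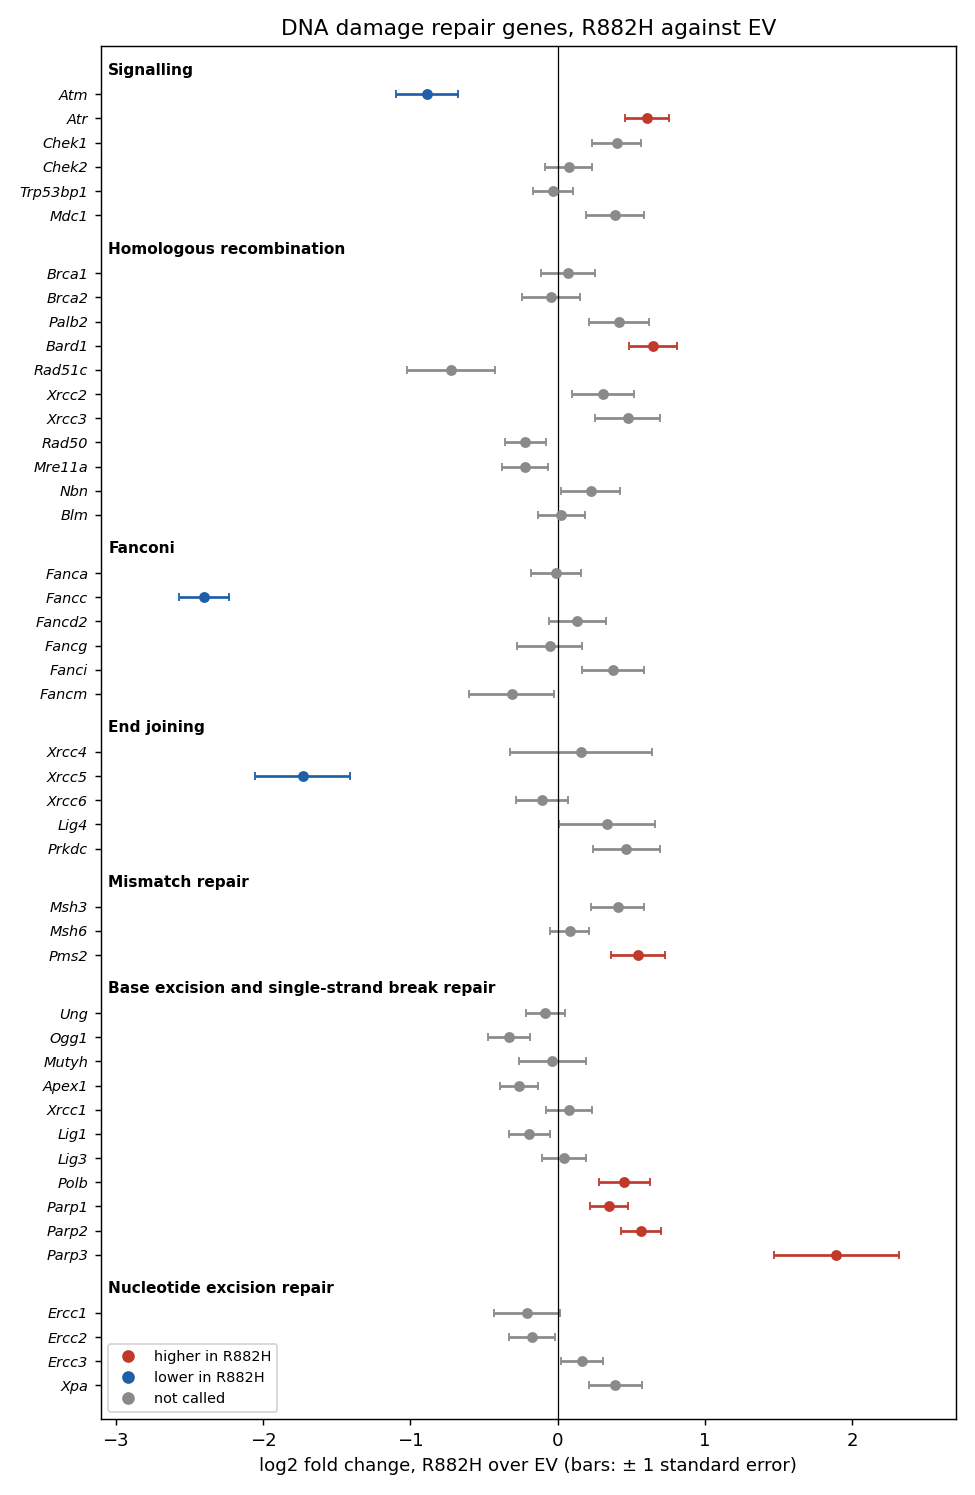
Log2 fold change, R882H over EV, of each of the 46 repair genes (x axis) by pathway (y axis), from the edgeR fit to 4 libraries, with bars of 1 standard error on each side. Most points lie near 0; Fancc (-2.40) and Xrcc5 (-1.73) lie far to the left and Parp3 (1.89) far to the right.

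Damage signalling held a fall and a rise in its 2 apical kinases. Atm, the kinase that answers to double-strand breaks (ENSMUSG00000034218, mm10 chromosome 9, 53439149 to 53536740), had 101 and 127 counts in EV and 55 and 74 in R882H, or 18.5 and 22.4 CPM in EV and 9.20 and 13.0 CPM in R882H. Both R882H libraries lay below both EV libraries, and the log2 fold change was -0.89 ± 0.21 (standard error from the edgeR fit, n = 2 libraries per group here and below; adjusted p = 0.00111). Atr, the kinase of replication stress (ENSMUSG00000032409, chromosome 9, 95857597 to 95951781), had 39.8 and 37.9 CPM in EV and 53.2 and 65.3 CPM in R882H, from 217, 215, 318 and 372 counts. The groups did not overlap, R882H replicate 2 was the highest, and the log2 fold change was 0.61 ± 0.15 (adjusted p = 0.00140). Without R882H replicate 1 the Atm call ended (log2 fold change -0.64, adjusted p = 0.0577), and without R882H replicate 2 the Atr call ended (0.47, adjusted p = 0.0778).

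Chek1, the checkpoint kinase downstream of ATR, had 34.5 and 30.0 CPM in EV and 36.0 and 49.2 CPM in R882H. Its R882H libraries were both above the EV libraries but far apart, and the log2 fold change of 0.40 ± 0.17 missed the threshold (adjusted p = 0.0576). Chek2, the checkpoint kinase downstream of ATM, had overlapping groups (0.07 ± 0.16), as had Trp53bp1, a mediator that favours end joining (-0.03 ± 0.13). Mdc1, the scaffold on phosphorylated histone H2AX, had 14.3 and 21.7 CPM in EV and 25.4 and 21.8 CPM in R882H (0.39 ± 0.20, adjusted p = 0.114). Its EV replicate 2 lay almost level with R882H replicate 2.

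In homologous recombination, 1 of 11 genes rose (9.09% called, beside 38.8% of all tested genes) and the other 10 did not pass the test. Bard1, the partner of BRCA1 in its ubiquitin ligase (ENSMUSG00000026196, chromosome 1, 71027498 to 71103146), had 146 and 161 counts in EV and 267 and 238 in R882H, or 26.8 and 28.4 CPM in EV and 44.7 and 41.8 CPM in R882H. The libraries of each group lay close together and well apart from the other group, with a log2 fold change of 0.65 ± 0.16 (adjusted p = 0.00160). Brca1 itself had 19.99 and 19.1 CPM in EV and 20.1 and 20.9 CPM in R882H (0.07 ± 0.18, adjusted p = 0.797). The difference between the fold changes of Bard1 and Brca1 was not tested. Brca2, a mediator that works on resected ends, had overlapping groups (-0.05 ± 0.20), and Palb2, which links it to BRCA1, had 11.6 and 14.8 CPM in EV and 18.2 and 17.0 CPM in R882H (0.42 ± 0.21, adjusted p = 0.108).

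Rad51c, Xrcc2 and Xrcc3, which assist strand exchange, all missed the threshold, with values on both sides of 0. Rad51c had 9.90 and 6.88 CPM in EV and 4.85 and 5.27 CPM in R882H, from 54, 39, 29 and 30 counts. Its R882H libraries were both lower, and its log2 fold change of -0.73 ± 0.30 missed the threshold (adjusted p = 0.0527). Xrcc3, its partner in a complex that acts late in recombination, had 9.72 and 12.2 CPM in EV and 14.2 and 16.3 CPM in R882H (0.48 ± 0.22, adjusted p = 0.0845), and Xrcc2 had 0.31 ± 0.21. The end resection complex of Mre11a (-0.22 ± 0.16), Rad50 (-0.22 ± 0.14) and Nbn (0.22 ± 0.20), and Blm, the Bloom helicase that dissolves recombination intermediates (0.02 ± 0.16), were not called.

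The Fanconi gene Fancc showed the largest change among the 46. FANCC is a subunit of the core complex that ubiquitinates FANCD2 and FANCI at crosslinks, and its loss causes Fanconi anaemia. Fancc (ENSMUSG00000021461, chromosome 13, 63285043 to 63497278) had 396 and 446 counts in EV and 74 and 93 in R882H, or 72.6 and 78.7 CPM in EV and 12.4 and 16.3 CPM in R882H. The EV libraries were high and the R882H libraries low with a wide gap between them, a 5.28-fold lower level in R882H (log2 fold change -2.40 ± 0.17, adjusted p = 7.87e-14). With any 1 library left out the log2 fold change stayed between -2.59 and -2.20. The other 5 members did not pass the test, so 16.7% of this list were called, beside 38.8% of all tested genes. In the core complex, Fanca had 25.1 and 27.5 CPM in EV and 26.8 and 25.5 CPM in R882H (-0.01 ± 0.17) and Fancg had -0.05 ± 0.22. Fancd2, the complex's substrate, had 0.13 ± 0.19, and Fancm, the helicase that recruits the core complex, -0.31 ± 0.29. Fanci, the partner of FANCD2, had 11.7 CPM in EV replicate 1 and 20.01 to 22.6 CPM in the other 3 libraries (0.38 ± 0.21), so that its fold change rested on that library: it was 0.02 without it and 0.85, with an adjusted p of 0.0103, without EV replicate 2.

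In end joining, Xrcc5 fell and the other 4 genes did not pass the test (20% called, beside 38.8% of all tested genes). Xrcc5 encodes KU80, which with KU70 forms the ring that caps broken ends. Xrcc5 (ENSMUSG00000026187, chromosome 1, 72307421 to 72394952) had 54 and 54 counts in EV and 14 and 20 in R882H, or 9.90 and 9.53 CPM in EV and 2.34 and 3.51 CPM in R882H. Its EV libraries were level and both R882H libraries were far lower, a 3.31-fold lower level (log2 fold change -1.73 ± 0.32, adjusted p = 5.32e-05), on few counts. Xrcc6, the gene of KU70, had 23.8 and 32.8 CPM in EV and 26.4 and 26.3 CPM in R882H (-0.10 ± 0.18, adjusted p = 0.677), with R882H inside the range of EV. Its sign turned without EV replicate 2 (0.14). The difference between the fold changes of the 2 Ku genes was not tested. Prkdc, the catalytic subunit of DNA-PK, had 10.3 and 9.36 CPM in EV and 12.9 and 14.2 CPM in R882H (0.46 ± 0.23, adjusted p = 0.104). Lig4, the ligase of this pathway (0.34 ± 0.33), and its cofactor Xrcc4 (0.16 ± 0.48) had at most 36 counts in any library and were not called.

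In mismatch repair, Pms2, a MutL homologue that nicks the mispaired strand (ENSMUSG00000079109, chromosome 5, 143909964 to 143933968), had 16.1 and 15.9 CPM in EV and 23.3 and 23.5 CPM in R882H. The replicates of each group were nearly equal and the groups apart (log2 fold change 0.55 ± 0.18, adjusted p = 0.0182). The call ended when any 1 library was left out (adjusted p 0.0536 to 0.0747, log2 fold change 0.53 to 0.57) and in DESeq2 (adjusted p = 0.184). The mispair sensors were not called. Msh3, for larger loops, had 18.2 and 23.5 CPM in EV and 29.4 and 25.8 CPM in R882H (0.41 ± 0.18, adjusted p = 0.0691), and Msh6, for single mispaired bases, had 155.3 and 155.0 CPM in EV and 163 and 165 CPM in R882H (0.08 ± 0.13).

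**Figure D2:**
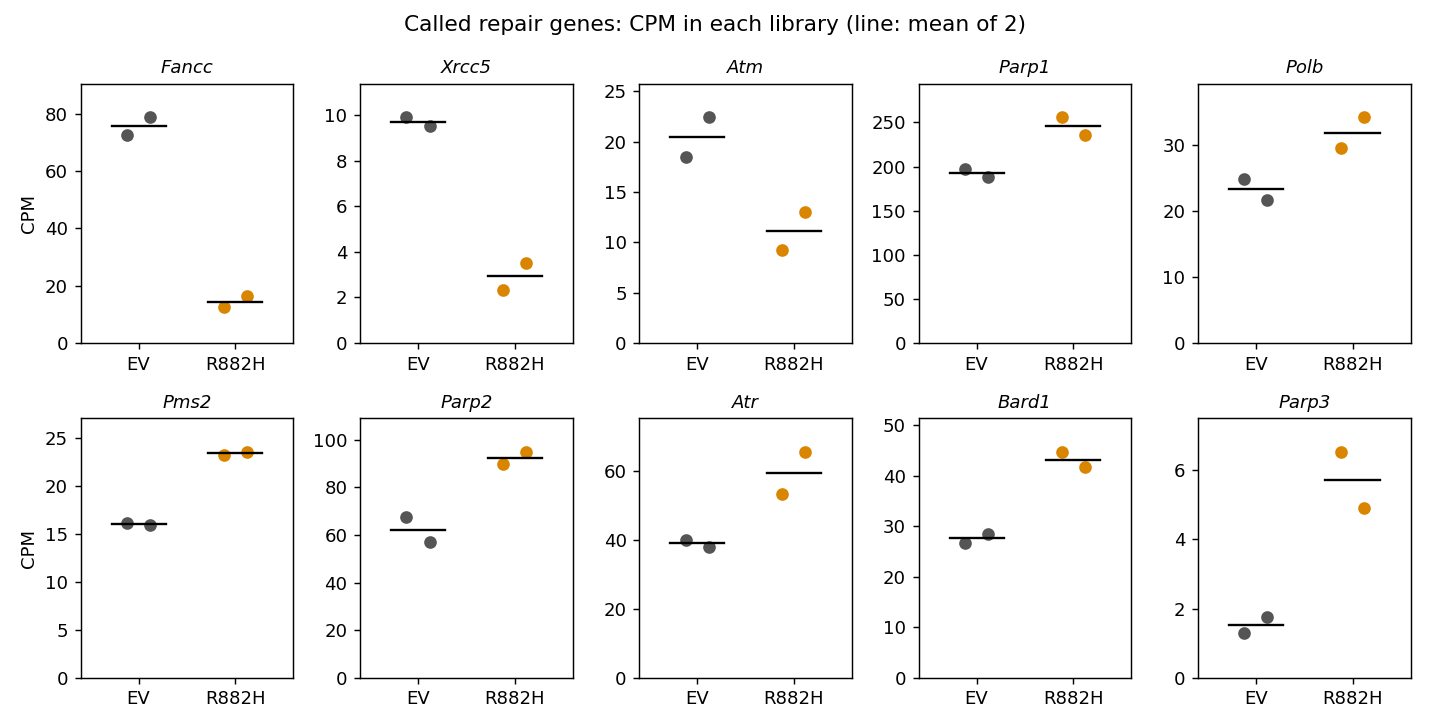
CPM (y axis, from 0) of the 10 called repair genes in each library, with EV on the left and R882H on the right of each panel, points for libraries (n = 2 per group) and a line for their mean. In all 10 genes the groups do not overlap, as in 4426 of the 4435 called genes among all tested genes. The gap is widest for Fancc, from 72.6 and 78.7 CPM in EV to 12.4 and 16.3 CPM in R882H.

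In base excision and single-strand break repair 4 of 11 genes rose (36.4% called, beside 38.8% of all tested genes), and 3 of the 4 were poly(ADP-ribose) polymerases, enzymes that mark DNA breaks with chains or units of ADP-ribose. Parp1, the main break sensor of the family (ENSMUSG00000026496, chromosome 1, 180568924 to 180601254), had 198 and 188 CPM in EV and 256 and 236 CPM in R882H, from 1077, 1066, 1528 and 1343 counts. Both R882H libraries were higher (log2 fold change 0.35 ± 0.13, adjusted p = 0.0321). Parp2, which shares much of its work (ENSMUSG00000036023, chromosome 14, 50807841 to 50821301), had 67.5 and 57.0 CPM in EV and 89.7 and 94.8 CPM in R882H. The groups were well apart (0.57 ± 0.14, adjusted p = 0.00106). Parp3, which acts with the end joining machinery at double-strand breaks (ENSMUSG00000023249, chromosome 9, 106470322 to 106476949), had 7 and 10 counts in EV and 39 and 28 in R882H, or 1.28 and 1.77 CPM in EV and 6.53 and 4.92 CPM in R882H. It had the lowest EV level of the 46 in CPM of 3′ tags and the largest rise, 3.71-fold (log2 fold change 1.89 ± 0.42, adjusted p = 0.000520). Where a group holds so few counts, this standard error can fall below counting error. Parp3 also passed the low-count filter only through the R882H libraries, where it is high. Its place among the tested genes thus depended on that group.

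Polb, the gap-filling polymerase of base excision repair (ENSMUSG00000031536, chromosome 8, 22628126 to 22653435), had 24.9 and 21.7 CPM in EV and 29.6 and 34.2 CPM in R882H. Both R882H libraries were higher, with a spread in each group (log2 fold change 0.45 ± 0.17, adjusted p = 0.0348). The calls of Polb and Parp1 both ended in DESeq2 (adjusted p = 0.230 and 0.0662). They also ended when EV replicate 2 was left out (0.169 and 0.0676), when R882H replicate 1 was (0.0539 and 0.269) and when R882H replicate 2 was (0.252 and 0.0965). The Parp2 and Parp3 calls held without any 1 library, with log2 fold changes of 0.45 to 0.69 and 1.68 to 2.14.

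The other 7 genes of this pathway did not pass the test. Among the glycosylases that remove damaged bases, Ogg1, for 8-oxoguanine, had 57.9 and 59.7 CPM in EV and 43.7 and 50.03 CPM in R882H, both R882H libraries lower (-0.33 ± 0.14, adjusted p = 0.0647), Ung, for uracil, -0.08 ± 0.13 and Mutyh, for adenine opposite 8-oxoguanine, -0.04 ± 0.23. Apex1, the endonuclease that cuts at the emptied site, had 215 and 202 CPM in EV and 177 and 170.4 CPM in R882H (-0.26 ± 0.13, adjusted p = 0.105). The scaffold Xrcc1 (0.08 ± 0.16) and its ligase Lig3 (0.04 ± 0.15) had overlapping groups. Lig1, which also joins Okazaki fragments, had the highest level of the 46 in CPM of 3′ tags, 506 and 612 CPM in EV and 445 and 534 CPM in R882H (-0.19 ± 0.14, adjusted p = 0.293), and its spread within each group was wider than the step between the groups.

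In nucleotide excision repair, edgeR and DESeq2 each called 0 of 4 genes, beside 38.8% and 21.1% of all genes to which they gave an adjusted p. Of the 4, 1, Xpa, had an unadjusted edgeR p under 0.05. Xpa, which verifies the lesion, had 33.9 and 21.5 CPM in EV and 36.5 and 36.2 CPM in R882H (0.39 ± 0.18, adjusted p = 0.0842). EV replicate 2 stood apart from the other 3 libraries: the log2 fold change was 0.09 without it and 0.75, with an adjusted p of 0.00457, without EV replicate 1. The incision gene Ercc1 (-0.21 ± 0.23) and the helicase genes Ercc2 (-0.17 ± 0.16) and Ercc3 (0.17 ± 0.14), subunits of the transcription factor TFIIH, were not called either.

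**Figure D3:**
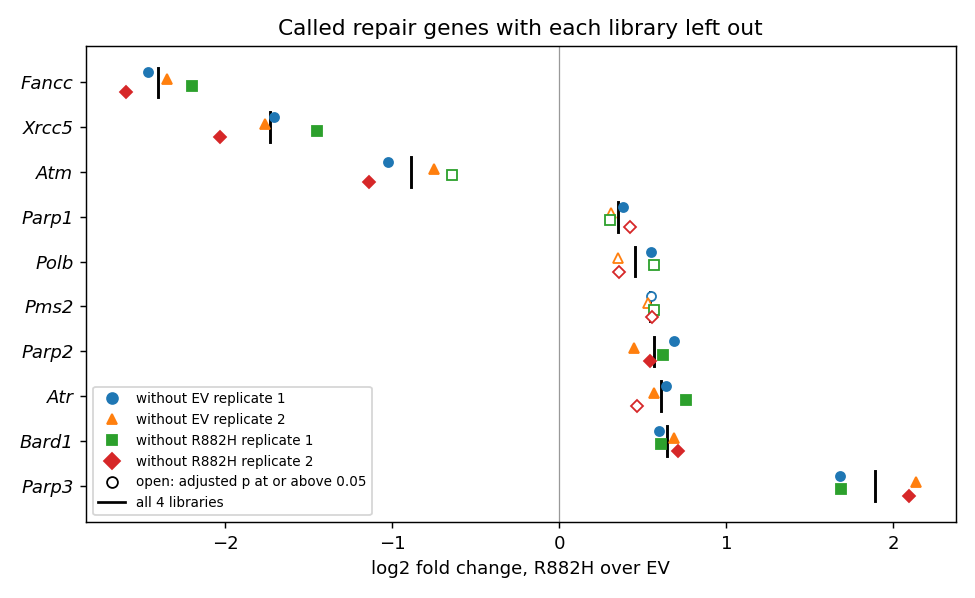
Log2 fold change, R882H over EV (x axis), of the 10 called repair genes (y axis) with all 4 libraries (black line) and with each library left out in turn (symbols; open where the edgeR adjusted p was at or above 0.05). No symbol crosses 0; Fancc, Xrcc5, Parp2, Bard1 and Parp3 keep filled symbols throughout, and the 4 symbols of Pms2 are all open.

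Of the 10 called genes, 5 (Fancc, Xrcc5, Bard1, Parp2 and Parp3) passed the threshold in every alternative that held them, and none of the 10 changed sign. The exons of 5 of the called genes overlap those of another gene with counts. The overlap lay 4618 bases or more from the annotated 3′ end, where these tags arise, for Atr, Fancc, Pms2, Polb and Parp3 alike. For Fancc it lay 39867 bases away, and the overlapping gene 2010111I01Rik had 152 and 138 counts in EV and 176 and 195 in R882H.

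Further genes of the same pathways were taken from a wider list of 110, of which 106 were tested. Of these 14 rose and 6 fell while 86 missed the threshold, so 18.9% were called, beside 38.8% of all tested genes; their median log2 fold change was 0.12. In signalling 2 of 14 rose and 1 fell. Rad1, a part of the ring-shaped 9-1-1 clamp that helps ATR to fire, had 193 and 144 counts in EV and 380 and 375 in R882H (log2 fold change 1.09 ± 0.16), and Etaa1, an ATR activator, had 0.89 ± 0.21. Rad9a, another part of the same clamp, fell (-0.50 ± 0.13), a call that ended without R882H replicate 2 (adjusted p = 0.111); its exons overlap Ppp1ca. In recombination 3 of 30 rose and 3 fell. Eme1, a subunit of a structure-specific nuclease, fell from 720 and 878 counts to 491 and 483 (-0.78 ± 0.13), with exons that overlap Lrrc59 and Mrpl27. Rad51b rose (1.08 ± 0.29) and Rmi2, of the Bloom helicase complex, fell (-0.58 ± 0.17). Rad51b lost its call without EV replicate 2 (adjusted p = 0.0704), without R882H replicate 1 (0.0625) and in DESeq2 (0.0843), and Rmi2 without R882H replicate 1 (0.187) and in DESeq2 (0.0577).

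Of the further Fanconi genes 2 of 10 rose (20% called). Each list in this paragraph had a smaller share called than the 38.8% of all tested genes. Fancl, the ubiquitin ligase of the core complex that holds FANCC, had 199 and 228 counts in EV and 405 and 445 in R882H (0.93 ± 0.14), opposite in direction to Fancc; its exons overlap Vrk2. Usp1, which removes the ubiquitin from FANCD2, had 0.34 ± 0.13, a call that ended without EV replicate 2 (adjusted p = 0.0890), R882H replicate 1 (0.0622) or R882H replicate 2 (0.425) and in DESeq2 (0.0977). Among 9 end joining genes Tdp2 (0.98 ± 0.18) and Tdp1 (0.42 ± 0.16), which free DNA ends from trapped topoisomerases, rose, and the Tdp1 call ended without EV replicate 1 (adjusted p = 0.147), without R882H replicate 2 (0.290), with library size only (0.0532) and in DESeq2 (0.214). Of 13 base excision genes Neil3, a glycosylase that also acts on crosslinks, rose from 76 and 68 counts to 164 and 139 (adjusted p = 7.51e-05). Of 19 nucleotide excision genes, Gtf2h1 fell (-0.69 ± 0.14) and Mnat1 rose (0.48 ± 0.16, with its call lost without EV replicate 2, without R882H replicate 1 and, at an adjusted p of 0.140, in DESeq2). Both belong to TFIIH, as do Gtf2h2, Gtf2h3, Gtf2h4, Gtf2h5, Cdk7 and Ccnh of the same list, which were not called.

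Of 9 genes of direct reversal and translesion synthesis 3 rose (33.3% called, beside 38.8% of all tested genes). Mgmt, which removes methyl groups from guanine in DNA, had 0 and 1 counts in EV and 25 and 23 in R882H, a ratio of 45.7 with an exact 95% interval of 7.82 to 1840 that covers counting error only. Nearly all of its counts came from the R882H libraries, and Mgmt passed the low-count filter only through them. Its place among the 9 tested and the 3 called genes thus depended on the group where it is high. Poli, a polymerase that copies past damage, had 110 and 134 counts in EV and 289 and 266 in R882H (1.12 ± 0.17), and Rad18, the ligase that marks PCNA for such bypass, had 155 and 136 counts in EV and 250 and 245 in R882H (0.69 ± 0.16). In all 3 the groups were apart, as in 4426 of the 4435 called genes among all tested genes.

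**Figure D4:**
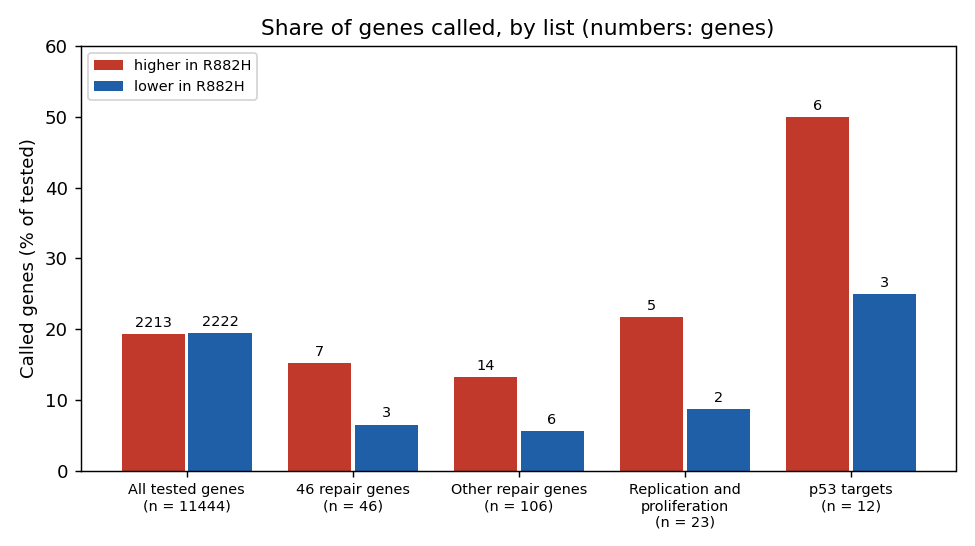
Percent of tested genes called higher (red) or lower (blue) in R882H (y axis) in all tested genes and in 4 lists (x axis), with the number of genes above each bar. The 46 repair genes (7 higher, 3 lower) and the other repair genes (14 and 6) lie below the bars of all tested genes in both directions.

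Many repair genes are transcribed with S phase, so a list of 23 replication and proliferation genes is set beside them. Of these 5 rose and 2 fell (30.4% called, beside 38.8% of all tested genes), with a median log2 fold change of 0.09 and a range of -0.62 to 0.51. Cdk1, the mitotic kinase (0.51 ± 0.14), Mcm6, of the replicative helicase (0.47 ± 0.13), and Pola1, of the primase complex (0.41 ± 0.14), rose, and Rrm2, of ribonucleotide reductase (-0.62 ± 0.13), fell. The calls of Cdk1, Mcm6 and Pola1 ended in at least 1 setting with a library left out, and the proliferation marker Mki67 had 0.04 ± 0.13. Of 12 tested p53 targets, which damage signalling can raise, 6 rose and 3 fell (75% called, beside 38.8% of all tested genes), and DESeq2 called 3 higher and 2 lower. The log2 fold changes of the 12 were above 0 in 6 and below 0 in 6, with a median of 0.21. This list was chosen with earlier results of these data known, so its share called is a description only. Cdkn1a, the cell cycle inhibitor p21, had 75 and 115 counts in EV and 486 and 562 in R882H (2.40 ± 0.17), Ccng1 (1.45 ± 0.17) and the death gene Bbc3 (0.90 ± 0.19) rose, and Gdf15 fell (-3.96 ± 0.35). Gdf15 had 7 and 5 counts in R882H and passed the low-count filter only through EV, where it is high. The part of proliferation in the repair gene values was not tested.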

How the data were processed

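RNA of 4 libraries was profiled with QuantSeq 3′ tags, per the labels' protocols. The deposited values are raw counts per Ensembl gene, 1 column per library. The submitters' processing notes name the mm10 build, HISAT2 2.0.4, featureCounts and Subread 2.0.0, among others and with no roles. The annotation, strandedness and handling of multi-mapping reads were not given in the sources used here. Symbols, positions and exon overlaps came from GENCODE M21, which matched 52489 of 52636 IDs (same assembly as mm10; positions 1-based). The 147 IDs without a symbol held 0.0839% of counts and stayed in the fit.

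Low counts were filtered with filterByExpr and libraries scaled by TMM. Counts were tested with robust glmQLFit and glmQLFTest of edgeR 4.0.16 (R 4.3.3), adjusted by Benjamini-Hochberg over all tested genes at 0.05. The code was run on simulated counts with far fewer changed genes than were called here and the same dispersion for every gene. That run does not show how the test performs at the spread and share of changes in these data. The standard error is the absolute log2 fold change over the root of the F statistic. CPM uses TMM-scaled library sizes. Replicates differed by more than sampling noise (chi-square per degree of freedom 7.41 in EV and 4.90 in R882H). The repair genes and lists were chosen with earlier results of these data known. All 46 members are accounted for; of the wider list up to 3 called genes per pathway with the smallest p were named, and of the lists beside it up to 4. A gene that meets this rule is not reported here. Mki67 and the Y-linked genes were added after values were seen. Promoter windows are from RefSeq (GRCm38.p6); Fancd2, Prkdc, Xrcc2, Ercc3, Rad50, Polb and Nbn had none. Alternatives were other scalings and filters, robust=FALSE, DESeq2 1.42.0, a replicate block, leaving out each library, and leaving out genes with overlapping exons.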

Additional observations from a re-analysis of the deposited data

How the results depend on the processing

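The median log2 fold change of the 46 repair genes stayed within its spread between replicates in all 12 alternatives. DESeq2 called 2716 of all genes, 4 repair genes higher, and 8 of the other repair genes higher and 3 lower. Without genes whose exons overlap another gene, 24 of the 46 could be tested and 3 of them were called higher. With each library left out in turn, calls ranged from 2954 to 4233 over all genes, from 3 to 7 repair genes higher and 2 to 4 lower, and from 9 to 17 other repair genes higher and 3 to 7 lower. The lowest number of repair genes called higher came without R882H replicate 2, and the lowest over all genes (2954) and of other repair genes (9 higher and 3 lower) without R882H replicate 1. Where a group keeps 1 library, that library is assumed to vary like the others.

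Signs turned in 11 uncalled repair genes when a library was left out. Their log2 fold changes then ranged from -0.16 to 0.30 for Chek2, -0.21 to 0.13 for Brca2, -0.0038 to 0.078 for Blm, -0.081 to 0.051 for Fanca, -0.33 to 0.20 for Fancg, -0.25 to 0.70 for Xrcc4, -0.32 to 0.14 for Xrcc6, -0.19 to 0.019 for Ung, -0.15 to 0.10 for Mutyh, -0.027 to 0.18 for Xrcc1 and -0.12 to 0.21 for Lig3. Of the 36 uncalled genes, 6 passed the threshold in at least 1 alternative (Chek1, Mdc1, Rad51c, Fanci, Msh3 and Xpa). Same-numbered libraries did not deviate together (r = 0.00392 across 11444 genes). This cannot tell whether they were made in pairs, which the labels do not state. With the replicate block 9 repair genes were called higher, 3 lower and 4425 genes in all. Depth weighs most on the genes with the fewest counts, Xrcc4, Lig4 and Parp3 in EV, whose standard errors (0.48, 0.33 and 0.42) were above those of better covered genes such as Parp1 (0.13).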
